A study of Mus musculus with 4 samples.

Results

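Neat1, Malat1 and Miat are 3 long non-coding RNAs that stay in the cell nucleus, and their UMIs (unique molecular identifiers, 1 per captured RNA molecule) were followed through the annotated cell clusters of the adult mouse hypothalamus. They are 3 of the 32285 genes in the count matrices and were taken by name. They were chosen by measured values of these same data, UMIs summed per library over each cluster, and which contrast of those values decided is not recorded. Their levels by cluster and their differences between genotypes are therefore given as a description, and no p-value on them is independent evidence. The study compared wild-type (WT) male mice with male mice heterozygous for TRα1 R384C (TRα1+m), a point mutation of the thyroid hormone receptor α1 that lowers its affinity for the hormone, both on the C57/BL6NCr background. Each library holds the pooled nuclei of snap-frozen hypothalami from 3 adult mice. There were 2 experimental repeats, each with 1 WT and 1 TRα1+m library, so n = 2 libraries per genotype stands for 6 mice. All values are summed UMIs per library and cluster, divided by all UMIs of that library and cluster and scaled to 1000000 (CPM).

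Neat1 is the scaffold of paraspeckles, nuclear bodies that hold RNA-binding proteins such as NONO and SFPQ. Its gene makes a short polyadenylated transcript and a long one, and only the long one builds paraspeckles. Malat1, made from the neighbouring gene, is among the most abundant nuclear RNAs of mammalian cells and gathers in nuclear speckles, the stores of splicing factors around the proteins SON and SRRM2. Miat, also called Gomafu, is a spliced RNA known from neurons, where it forms its own nuclear spots and binds splicing factors such as SF1 and proteins of the QKI and CELF families.

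In GENCODE M21 on GRCm38, the build of the count files, all 3 genes are annotated as lincRNA and lie on the minus strand. Neat1 (ENSMUSG00000092274) covers chr19:5824708-5845478, and Malat1 (ENSMUSG00000092341) covers chr19:5795690-5802672, with 22035 bases between them. Miat (ENSMUSG00000097767) covers chr5:112213228-112229395. Nuclei were captured by the 3′ chemistry of 10x Genomics, which primes on stretches of A, so the stretches of Neat1 and Malat1 below show transcript ends and a run of A. That of Miat shows its repeated motif. The first is the last 60 bases of the short transcript Neat1-202 (3004 bases, 2 exons), at chr19:5842307-5842366, with its polyadenylation signal AATAAA in capitals, 14 bases before the end. The second is the last 60 bases of the long, single-exon Neat1-201 (20771 bases), at chr19:5824708-5824767, with runs of 4 or more A in capitals.
Neat1-202 end: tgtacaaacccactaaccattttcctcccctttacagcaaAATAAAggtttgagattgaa
Neat1-201 end: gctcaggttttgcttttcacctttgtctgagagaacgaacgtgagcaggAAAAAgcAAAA
The last 60 bases of Neat1-201 hold no AATAAA, whereas 30.6% of 13374 GENCODE lncRNA genes hold one there in their longest transcript, read on the transcript strand. The deposited counts are 1 number per gene, so the short and the long Neat1 transcript cannot be told apart.

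In Malat1-201, a single exon of 6983 bases, the longest run of A has 12 bases and begins at base 6674. A run of 12 or more A stands in the longest transcript of 6.25% of the lncRNA genes. The stretch around it, at chr19:5795970-5796029, has the run in capitals.
Malat1 A run: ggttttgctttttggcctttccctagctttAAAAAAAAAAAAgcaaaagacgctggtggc
Miat-205 (9163 bases, 7 exons) carries 6 copies of TACTAAC, the letters of the intron branch point that SF1 recognises, searched on the transcript strand. At least 1 copy was in the longest transcript of 4.58% of the lncRNA genes, and as many as in Miat in 2 genes, Miat included. Among the 32 lncRNA genes with a longest transcript of at least 8000 bases, 37.5% held a copy and 1, Miat itself, held that many. The stretch with 3 of the copies in capitals is at chr5:112216748-112216807.
Miat repeats: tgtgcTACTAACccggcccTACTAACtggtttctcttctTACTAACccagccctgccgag
A match of letters is a description of the transcript and shows no binding.

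The authors kept 56386 nuclei of 68190 barcodes, between 11976 and 16435 a library, with 47260127 to 59112785 UMIs a library. Kept barcodes shared by a pair of libraries numbered 44 to 64. The cluster names held against their markers: the summed level of 5 oligodendrocyte markers was 7393 to 21360 CPM in oligodendrocytes and at most 1429 CPM in the other 4 clusters tested, in every library. The microglia and macrophage cluster was mixed, since it also held 470 to 1433 CPM of 9 endothelial and mural genes and only 67.1% to 70.6% of its nuclei had UMIs of 2 or more of 5 microglial genes. Each nucleus cluster was named by the authors from these same nuclei, so a level in one cluster against another is a description.

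Neat1 was highest in oligodendrocytes, the myelin-forming cells. There it stood at 602 CPM in WT repeat 1 and 688 CPM in WT repeat 2, and at 150 and 251 CPM in TRα1+m repeats 1 and 2, from 405 to 1868 UMIs a library. Both mutant libraries lay below both WT libraries, and the 2 genotypes did not overlap. In the precursors of these cells (OPC) the level was far lower, at 28.1 and 21.9 CPM in WT and 3.71 and 3.04 CPM in TRα1+m, the latter from 6 and 4 UMIs. Astrocytes, the glia that supply and buffer neurons, held 63.9 and 76.1 CPM in WT and 34.5 and 44.1 CPM in TRα1+m. In the microglia and macrophage cluster the libraries were at 95.5 and 120 CPM in WT and 75.7 and 79.4 CPM in TRα1+m. The large neuronal cluster Neurons_1 was lowest in WT, at 9.91 and 10.2 CPM. In TRα1+m it held 5.08 and 3.20 CPM, and OPC were lower in each repeat. The mutant libraries were below the WT libraries in each of these 5 clusters, as they were for 20.6% of the genes tested in oligodendrocytes, 11.1% in OPC, 12.5% in astrocytes, 13.3% in the microglia and macrophage cluster and 5.71% in Neurons_1.

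**Figure D1:**
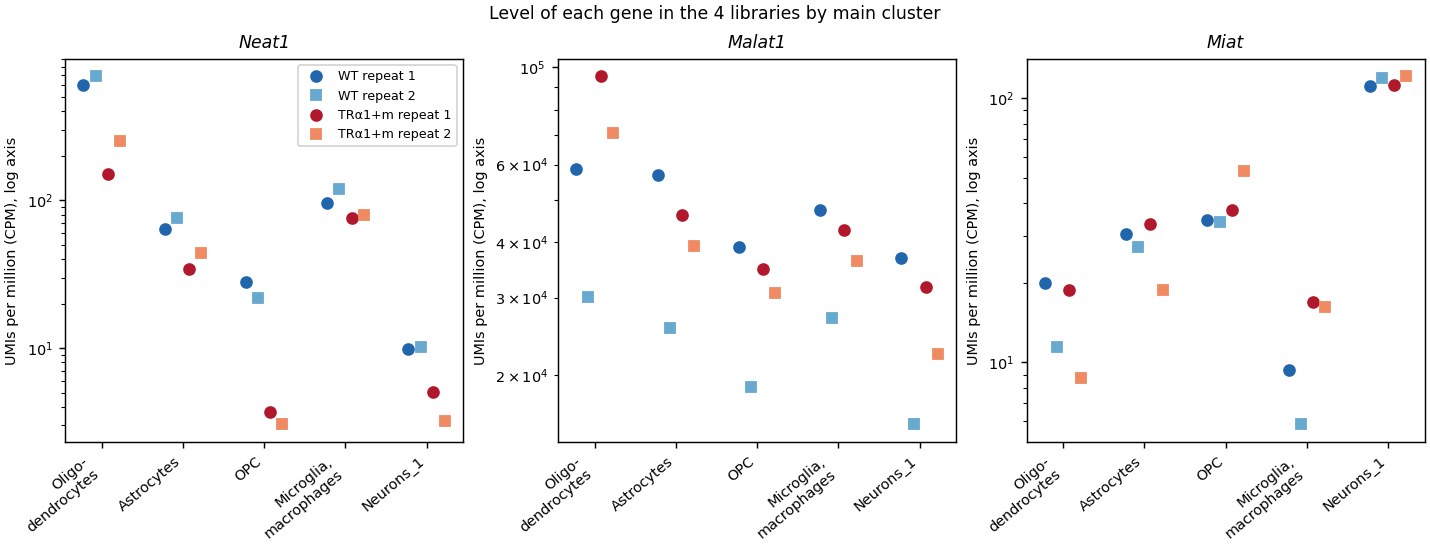
Level of Neat1, Malat1 and Miat in the 5 main clusters, in CPM on a log axis, 1 point per library (blue WT, red TRα1+m, circles repeat 1, squares repeat 2). Neat1 of both mutant libraries lies below both WT libraries in each cluster, from 150 and 251 against 602 and 688 CPM in oligodendrocytes to 5.08 and 3.20 against 9.91 and 10.2 CPM in Neurons_1. Malat1 of WT repeat 2 is the lowest of the 4 libraries in each cluster.

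As means, Neat1 in oligodendrocytes was 645 ± 61.2 CPM (SD, n = 2) in WT and 200.2 ± 71.4 CPM in TRα1+m, 3.22-fold lower in the mutant, and 4.02-fold lower in repeat 1 and 2.75-fold lower in repeat 2. The fitted log2 fold change was -1.62 (SE 0.27). In edgeR's quasi-likelihood test it was not called over the 12630 genes tested (adjusted p = 0.186), where 0.103% of genes were called. With the experimental repeat as a block the change was -1.66 (SE 0.17) and was called (adjusted p = 3.47e-13), in a fit that called 4.35% of genes. The blocked fits leave only 1 residual degree of freedom per gene, so their small p-values rest on little spread. DESeq2, which called 0.594% of genes, called Neat1 as well (adjusted p = 0.00116), and so did edgeR without a low-count filter (adjusted p = 0.0114). With 1 library left out, 1 library stands against 2, and the lone one is assumed to vary like the pair. Neat1 in oligodendrocytes was then called without TRα1+m repeat 1 (-1.28, adjusted p = 0.00210) or TRα1+m repeat 2 (-2.06, adjusted p = 0.000941), where the spread came from the WT libraries alone, and not called without WT repeat 1 (-1.68, adjusted p = 0.739) or WT repeat 2 (-1.54, adjusted p = 1.00). The fold was largest in OPC, 7.40-fold lower in the mutant, with a log2 change of -2.88 (SE 0.44, adjusted p = 0.665), called with the block (-2.90, SE 0.42, adjusted p = 1.69e-08, 0.569% of genes called), without a low-count filter (adjusted p = 3.50e-05) and without TRα1+m repeat 2 (-2.74, adjusted p = 0.0366), but not without any of the other 3 libraries (adjusted p = 0.118 to 0.936). Astrocytes gave -0.82 (SE 0.20, adjusted p = 1.00), again called with the block (-0.83, SE 0.14, adjusted p = 3.66e-05, 1.28% of genes called). Neurons_1 gave -1.33 (SE 0.29, adjusted p = 1.00) and the microglia and macrophage cluster -0.48 (SE 0.24, adjusted p = 1.00), and neither was called with the block (adjusted p = 0.159 and 0.820). In astrocytes, OPC, Neurons_1 and the microglia and macrophage cluster the unblocked edgeR fits called 0 genes, while 255, 185, 193 and 226 genes had an unadjusted p under 0.05 and DESeq2 called 1, 1, 1 and 0 genes (0.00676%, 0.00889%, 0.00502% and 0%). In bulk sums, fewer nuclei with the RNA and less RNA per nucleus cannot be told apart. The nuclei were also counted one by one, as a description.

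**Figure D2:**
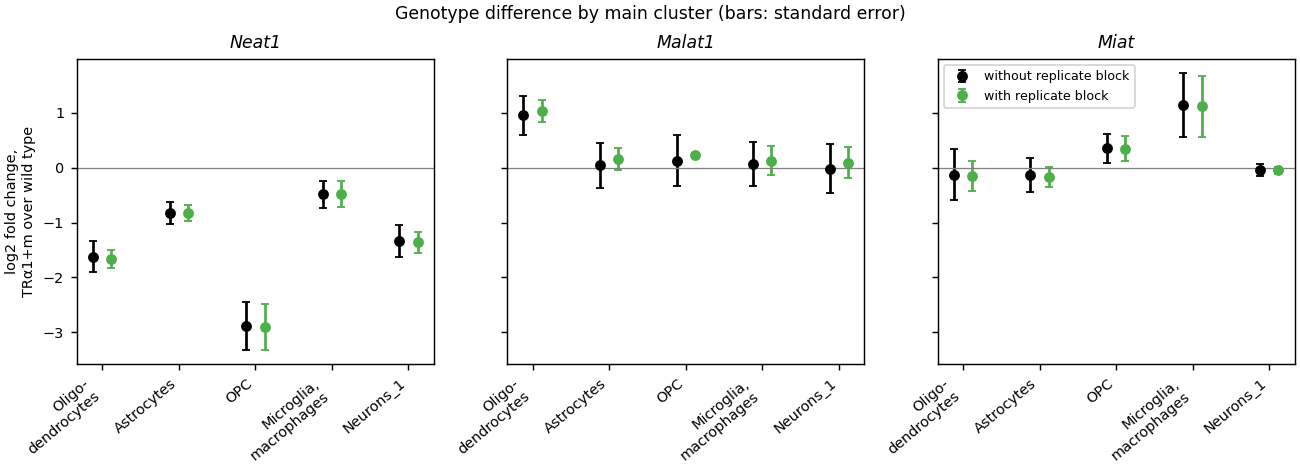
Fitted log2 fold change of TRα1+m over WT for each gene and main cluster, with bars of 1 standard error (n = 2 libraries per genotype), without (black) and with (green) the repeat as a block. Neat1 is negative in each cluster, from -0.48 in the microglia and macrophage cluster to -2.88 in OPC, while Malat1 is highest in oligodendrocytes at 0.96.

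For that count, each nucleus was thinned at random to 1000 UMIs, so that depth was equal, and nuclei under that depth were left out. A Neat1 UMI was then found in 42.0% and 45.6% of WT oligodendrocytes and in 13.0% and 17.8% of TRα1+m oligodendrocytes. The share with 2 or more Neat1 UMIs was 12.6% and 16.8% in WT and 1.67% and 4.28% in TRα1+m. Unthinned, 55.2% and 64.8% of WT and 18.0% and 26.2% of TRα1+m oligodendrocytes had a Neat1 UMI, at median depths of 1493, 1812, 1516 and 1663 UMIs. Thinning left out 75, 12, 64 and 11 nuclei of the 4 libraries in that order. Both the share of positive nuclei and the share with several UMIs were lower in both mutant libraries. The thinned oligodendrocyte nuclei held means of 0.584 and 0.698 Neat1 UMIs in WT and 0.149 and 0.238 in TRα1+m. At so few UMIs, less RNA in every nucleus would lower both shares too. The count therefore cannot tell fewer nuclei with the RNA from less RNA per nucleus. In Neurons_1 the thinned shares were 1.19% and 1.06% in WT and 0.416% and 0.456% in TRα1+m, in OPC 2.84% and 2.37% against 0.147% and 0.210%, and in astrocytes 5.67% and 6.38% against 2.79% and 3.81%. The OPC shares rest on 15 and 10 nuclei in WT and on 1 nucleus in each TRα1+m library. In the microglia and macrophage cluster the thinned shares overlapped, at 5.95% and 8.46% in WT and 5.45% and 6.15% in TRα1+m, and unthinned the share of WT repeat 1, 8.01%, was below both mutant libraries at 8.88% and 9.44%.

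**Figure D3:**
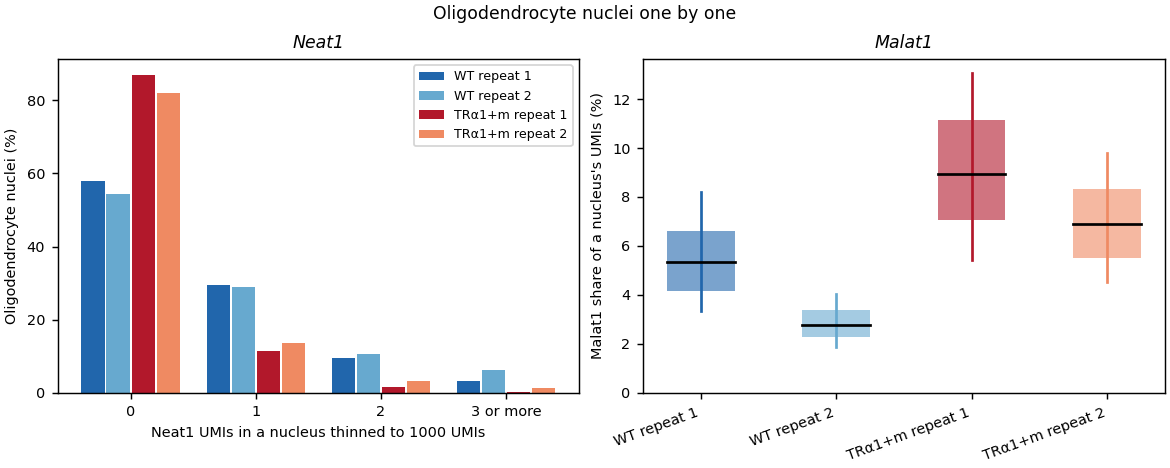
Left, percentage of oligodendrocyte nuclei with 0, 1, 2 or 3 and more Neat1 UMIs after thinning to 1000 UMIs, by library. Right, Malat1 as a percentage of a nucleus's UMIs, with the median (black line), the 25th to 75th percentile (box) and the 10th to 90th percentile (line). Nuclei with no Neat1 UMI make up 58.0% and 54.4% in WT and 87.0% and 82.2% in TRα1+m, and the Malat1 median is 5.35% and 2.77% in WT against 8.95% and 6.88%.

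The genotype order of Neat1 in oligodendrocytes was the same in shallow and deep nuclei. In nuclei under 1500 UMIs it was 566 and 642 CPM in WT against 147 and 203 CPM in TRα1+m, and in nuclei of 1500 to under 3000 UMIs it was 640 and 714 CPM against 153 and 271 CPM. Split by mitochondrial UMIs, a measure of RNA from outside the nucleus, nuclei with up to 1% held 570.3 and 606 CPM in WT against 204.9 and 270.4 CPM in TRα1+m, and those over 2% held 581 and 691 CPM against 141 and 235 CPM. The 2 genotypes stayed apart in each of the 6 classes.

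**Figure D4:**
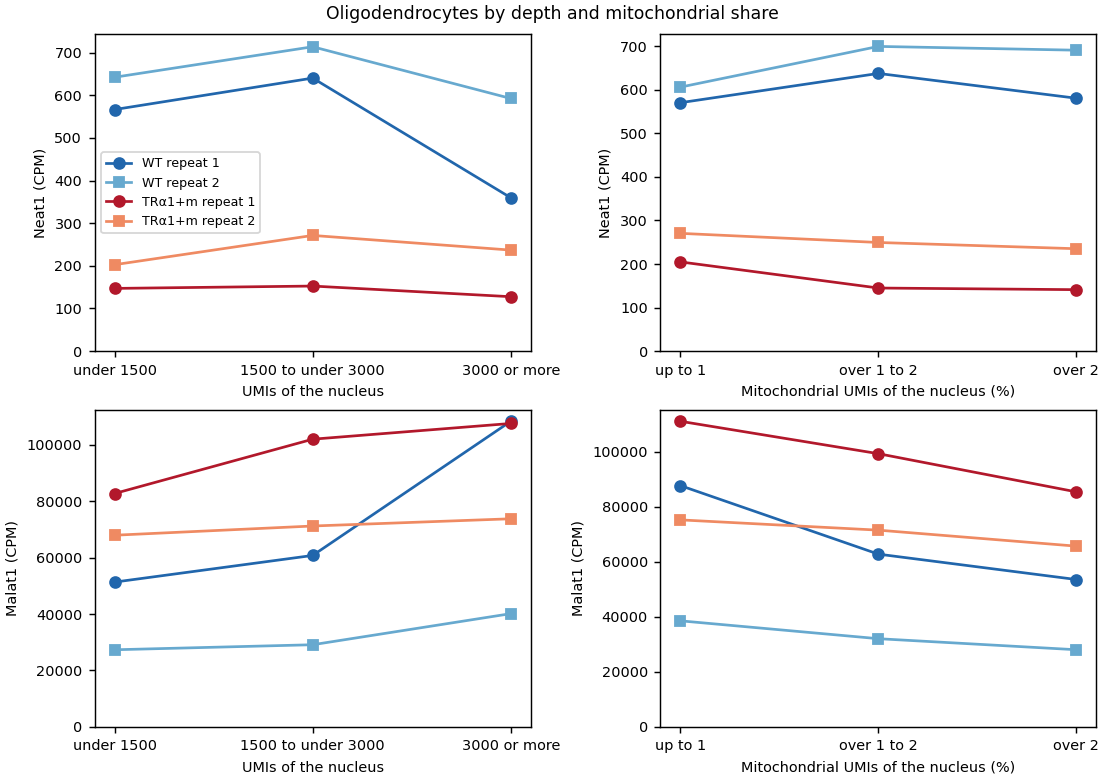
Neat1 (top) and Malat1 (bottom) in oligodendrocytes in CPM, in classes of nuclei by total UMIs (left) and by mitochondrial share (right), 1 line per library. The Neat1 lines of the 2 genotypes do not cross in any class, whereas Malat1 of WT repeat 1 reaches 108399 CPM in its 23 nuclei of 3000 or more UMIs, above both mutant libraries.

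Low levels outside oligodendrocytes have to be read beside free RNA, which gives a nucleus UMIs of genes it does not express. The myelin gene Mobp, which neurons lack, stood in Neurons_1 at 6.44%, 5.59%, 5.71% and 3.73% of its oligodendrocyte level (WT repeats 1 and 2, then TRα1+m), whereas Neat1 stood there at 1.65%, 1.48%, 3.39% and 1.28%. Neat1 in Neurons_1 was thus below the share of Mobp in each library. It was also higher in shallow neuronal nuclei, at 57.8 and 42.6 CPM in WT and 20.5 and 12.001 CPM in TRα1+m under 1500 UMIs, against 8.92, 9.65, 5.14 and 2.77 CPM at 3000 or more. In the neuronal nuclei with no UMI of 5 oligodendrocyte markers, Neat1 was at 7.73 and 6.43 CPM in WT and 3.13 and 2.63 CPM in TRα1+m. In OPC the share was 4.67% and 3.19% in WT and 2.48% and 1.21% in TRα1+m, where Mobp was at 15.1%, 11.1%, 12.4% and 7.80%, again below the marker. Only the astrocytes and the microglia and macrophage cluster of TRα1+m, and the latter in WT repeat 2, held a larger share of the oligodendrocyte level for Neat1 than for Mobp, at 23.0% and 17.6% against 12.9% and 9.60% in the mutant astrocytes and 50.6% and 31.7% against 17.5% and 13.0% in the mutant microglia and macrophage cluster. Free RNA from oligodendrocytes moves with their genotype, and its part in the lower Neat1 of Neurons_1 and OPC was not tested. In astrocyte nuclei without an oligodendrocyte marker UMI, Neat1 was 56.2 and 75.1 CPM in WT and 30.4 and 39.7 CPM in TRα1+m. In such nuclei of the microglia and macrophage cluster the genotypes overlapped, at 37.1 and 109.6 CPM in WT and 67.1 and 52.5 CPM in TRα1+m, from 7 to 29 UMIs, with WT repeat 1 below both mutant libraries.

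Whether the genotype difference of Neat1 itself differed between cell types was tested as an interaction on the library sums. The log2 effect in oligodendrocytes was below that in astrocytes by 0.83 (-0.83, SE 0.18, adjusted p = 0.127) and below that in the microglia and macrophage cluster by 1.20 (-1.20, SE 0.25, adjusted p = 0.0973), and neither was called in edgeR, where 0.327% and 0.160% of genes were. Against Neurons_1 it was -0.34 (SE 0.58, adjusted p = 1.00), and against OPC 1.26 (SE 0.43, adjusted p = 0.480), with 0.182% and 0.403% of genes called. Leaving out TRα1+m repeat 2 gave a call against the microglia and macrophage cluster (-1.54, adjusted p = 0.000176) and against Neurons_1 (-1.07, adjusted p = 0.00795), where leaving out TRα1+m repeat 1 turned the sign (0.50, adjusted p = 0.472).

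Over the 18 clusters and sub-clusters that had 10 or more nuclei per library, Neat1 followed the order oligodendrocytes (423 ± 263 CPM, SD, n = 4 libraries), the small non-neuronal cluster (243 ± 111), microglia and macrophages (92.7 ± 20.2), tanycytes (81.8 ± 30.8), the glia lining the third ventricle, and astrocytes without tanycytes (48.4 ± 16.6). Oligodendrocytes and the non-neuronal cluster differed by less than the larger SD, as did the microglia and macrophage cluster and tanycytes, while tanycytes and astrocytes were apart by more. These SDs span both genotypes. Within each library oligodendrocytes, at 602, 688, 150 and 251 CPM, were above the non-neuronal cluster. Tanycytes were above the microglia and macrophage cluster in WT repeat 1 alone (110 against 95.5 CPM). Every nucleus of the non-neuronal cluster held an oligodendrocyte marker UMI. The paper reports that this cluster shared genes with oligodendrocytes and astrocytes and had higher doublet scores, and did not analyse it further. How much of its Neat1 and Malat1 came from oligodendrocytes was not tested. Both mutant libraries were below both WT libraries in tanycytes, at 110 and 107 CPM in WT and 56.2 and 54.1 CPM in TRα1+m, and in the non-neuronal cluster, at 321 and 347 CPM against 112 and 193 CPM, as were 14.0% and 18.4% of genes with at least 10 UMIs there. Among neurons, the sub-cluster labelled MCH was highest at 37.5 ± 12.1 CPM, but its nuclei with UMIs of 2 or more vascular genes, 10.6% to 29.8% of it, held 80.3 and 97.8 CPM in WT and 40.9 and 60.6 CPM in TRα1+m. The MCH-labelled nuclei without them were at 37.1 and 28.7 CPM in WT and 15.7 and 20.3 CPM in TRα1+m. Below the sub-cluster labelled Orexin+ (19.7 ± 11.7 CPM), the other 10 neuronal sub-clusters lay between 4.00 and 8.86 CPM and no neighbours in the order were apart by more than their SD. Both mutant libraries were below both WT libraries in 8 of 12 neuronal sub-clusters, in each of which 7.20% to 14.0% of genes with at least 10 UMIs showed that order. They were so in all 6 of the other clusters as well, where 11.1% to 20.6% of genes did (13.1% in astrocytes without tanycytes). In the 7 neuronal sub-clusters with enough UMIs for the fit the log2 change lay between -1.64 and -0.50. None was called by edgeR, which called genes in 3 of the 12 sub-clusters (0.00865% in CART Neurons_1, 0.0119% in NPY/AgRP and 0.0430% in Orexin+), or by DESeq2 (0.00865%, 0.0239% and 0.0287% there). By edgeR and DESeq2, 4 and 2 of them had an unadjusted p under 0.05, not compared with the share over all genes. With the block 2 were called, those labelled GABA Neurons (-1.56, adjusted p = 5.81e-05, 0.684% of genes called) and Glutamatergic Neurons_1 (-1.65, adjusted p = 0.0468, 0.101% of genes called). Over the 12 sub-clusters the blocked fits called 0.0310% to 0.896% of genes, such as 0.678% in Glutamatergic Neurons_2, where Neat1 was at -0.55 (adjusted p = 0.716), and 0.389% in CART Neurons_1, where it had too few UMIs for the fit.

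**Figure D5:**
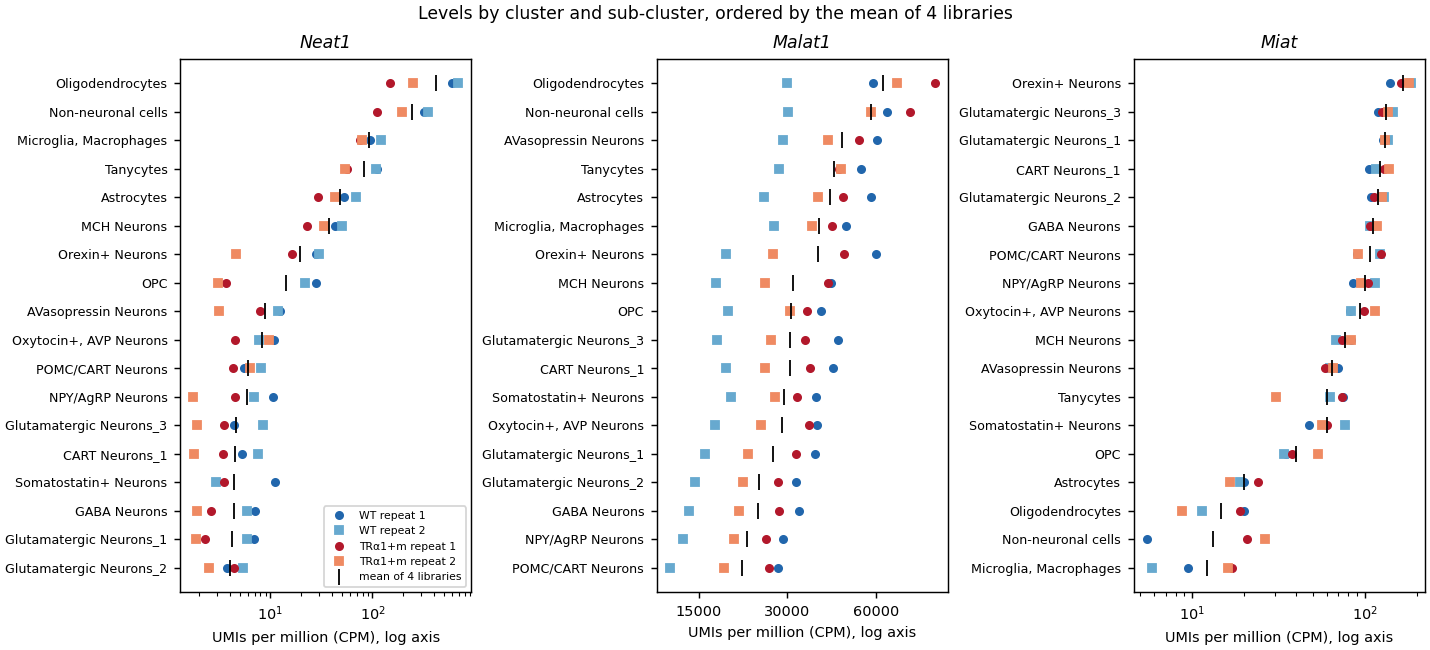
Levels in 18 clusters and sub-clusters in CPM on log axes, ordered by the mean of 4 libraries (black tick), 1 point per library. No point is drawn for a library at 0, which is Neat1 in Somatostatin+ neurons of TRα1+m repeat 2 and Miat in the non-neuronal cluster of WT repeat 2. Neat1 falls from 423 CPM in oligodendrocytes to 4.00 CPM in the lowest neurons, Miat runs the other way from 167 to 12.1 CPM, and Malat1 stays between 63583 and 21020 CPM.

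Malat1 took 4.01% and 1.73% of all UMIs of kept nuclei in WT repeats 1 and 2, and 3.67% and 2.75% in TRα1+m. In oligodendrocytes it stood at 58649 and 30005 CPM in WT and at 95060 and 70617 CPM in TRα1+m. Both mutant libraries were above both WT libraries, as for 11.7% of the genes tested there, and the ratio of the means was 1.87, with 1.62 in repeat 1 and 2.35 in repeat 2. In the other 4 main clusters the genotypes overlapped, because WT repeat 1 was above and WT repeat 2 below both mutant libraries. Astrocytes held 56989 and 25582 CPM in WT and 46177 and 39288 CPM in TRα1+m, and Neurons_1 held 36858 and 15470 CPM against 31764 and 22397 CPM. OPC were at 38978 and 18837 CPM against 34900 and 30696 CPM, and the microglia and macrophage cluster at 47462 and 26962 CPM against 42676 and 36265 CPM. In oligodendrocytes, of these neighbours on chromosome 19, Neat1 was thus lower and Malat1 higher in both mutant libraries than in both WT libraries.

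The Malat1 log2 change in oligodendrocytes was 0.96 (SE 0.36), not called by edgeR (adjusted p = 0.906) or DESeq2 (adjusted p = 0.740) and called with the block (1.03, SE 0.20, adjusted p = 0.000159). In OPC it was 0.13 (SE 0.46, adjusted p = 1.00). The blocked edgeR fit called it at 0.23 with an SE of 0.04 (adjusted p = 0.000134). The OPC ratio of TRα1+m over WT was 0.895 in repeat 1 and 1.63 in repeat 2, in opposite directions. That SE does not measure the spread between the repeats, so the call shows no separation of the genotypes. The log2 change in OPC was 0.80 without WT repeat 1 and -0.33 without WT repeat 2. In astrocytes, Neurons_1 and the microglia and macrophage cluster it was 0.05, -0.02 and 0.07, with SEs of 0.41, 0.44 and 0.40, and its sign changed with the libraries: without WT repeat 2 it was -0.44 in astrocytes and -0.30 in the microglia and macrophage cluster, and without WT repeat 1 it was 0.76 in Neurons_1. Of the 12 neuronal sub-clusters 0 were called by edgeR or DESeq2, with 0 at an unadjusted p under 0.05. Leaving out TRα1+m repeat 1 gave -0.67 in the sub-cluster labelled Orexin+. There the lone mutant library, at 26750 CPM, lay between the WT libraries at 60158 and 18577 CPM, so that value shows no separation of the genotypes. As an interaction, the effect in oligodendrocytes was above that in astrocytes by 0.87 (SE 0.20, adjusted p = 0.167), in the microglia and macrophage cluster by 0.89 (SE 0.33, adjusted p = 0.768), in Neurons_1 by 0.91 (SE 0.21, adjusted p = 0.263) and in OPC by 0.82 (SE 0.19, adjusted p = 0.0969). Without TRα1+m repeat 1 or 2 the difference from Neurons_1 was called (1.06 and 0.82, adjusted p = 0.00726 and 0.00855), as was that from OPC without TRα1+m repeat 2 (0.88, adjusted p = 0.00772).

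Nucleus by nucleus, the median Malat1 share of oligodendrocyte UMIs was 5.35% and 2.77% in WT and 8.95% and 6.88% in TRα1+m. The 10th percentile of the mutant libraries, 5.43% and 4.51%, was above the 90th percentile of WT repeat 2 at 4.05% and below that of WT repeat 1 at 8.19%. Malat1 fell with the mitochondrial share of the nuclei, from 87731, 38527, 111121 and 75246 CPM at up to 1% to 53543, 28004, 85419 and 65684 CPM at over 2% (WT repeats 1 and 2, then TRα1+m). Mitochondrial UMIs made up 2.31% and 2.44% of the oligodendrocyte total in WT and 1.97% and 1.79% in TRα1+m. Between over 1% and 2%, the libraries were at 62781 and 32022 CPM in WT and 99326 and 71511 CPM in TRα1+m, so the genotypes were apart within that class too, while at up to 1% the 55 nuclei of WT repeat 1 were above TRα1+m repeat 2. Oligodendrocyte nuclei with and without a Neat1 UMI in 1000 had close to the same Malat1, with means of 56.6 and 56.8 UMIs in 1000 in WT repeat 1, 28.5 and 30.01 in WT repeat 2, 91.3 and 93.3 in TRα1+m repeat 1 and 66.3 and 71.1 in TRα1+m repeat 2.

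Malat1 also differed between the experimental repeats, which serve as the block in the blocked genotype fit. The log2 change of repeat 2 against repeat 1, with genotype in the model, was -0.71 in oligodendrocytes (SE 0.20, adjusted p = 0.0100), -0.73 in astrocytes (SE 0.20, adjusted p = 0.0306) and -0.69 in OPC (SE 0.04, adjusted p = 2.20e-49), each called by edgeR where 12.4%, 20.6% and 11.4% of genes were. The repeat fit, too, leaves 1 residual degree of freedom per gene. In OPC, Malat1 fell from 38978 to 18837 CPM in WT and from 34900 to 30696 CPM in TRα1+m. The SE of 0.04 does not measure that spread, and in edgeR with RLE factors it was 0.44 (adjusted p = 0.647). DESeq2 kept the call in oligodendrocytes (adjusted p = 0.00628, 2.55% of genes called) and lost those in OPC and astrocytes (adjusted p = 0.857 and 0.665, 1.16% and 4.65% of genes called). It was -0.92 in Neurons_1 (SE 0.29, adjusted p = 0.225) and -0.56 in the microglia and macrophage cluster (SE 0.27, adjusted p = 0.247), not called where 25.2% and 6.27% of genes were. In both genotypes repeat 2 had the lower Malat1 in all 5 clusters. The repeats differed in other respects as well, such as summed oligodendrocyte markers in oligodendrocytes of 8314 and 7393 CPM in repeat 1 against 17841 and 21360 CPM in repeat 2 (WT, then TRα1+m). Their part in the Malat1 difference was not tested. Neat1 did not pass the test between repeats in any of the 5 clusters, with log2 changes from -0.42 to 0.44 and adjusted p from 0.0656 to 0.814.

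By level, Malat1 was spread far less between clusters than Neat1. Oligodendrocytes (63583 ± 27031 CPM, SD, n = 4), the non-neuronal cluster (57883 ± 20389) and the vasopressin neurons (45927 ± 13786) led, and the neurons labelled POMC/CART (21020 ± 7300.2) and NPY/AgRP (21877 ± 6876) were last. No neighbours in that order differed by more than the larger SD, which was 23.1% to 49.7% of the mean. That SD holds the difference between whole libraries, so it does not measure the order within a library. Oligodendrocytes were below the non-neuronal cluster in both WT libraries (65680 and 30098 CPM in the latter). They were above it in both TRα1+m libraries (78235 and 57520 CPM in the latter). The vasopressin neurons were below the non-neuronal cluster in each library, at 60697, 29033, 52659 and 41319 CPM. Other neighbours were not compared within libraries. In the microglia and macrophage cluster, nuclei with 0 or 1 microglial gene held 83182, 45339, 67554 and 58500 CPM. Those with 2 or more held 29065, 14919, 29786 and 22467 CPM, lower in each library. Neat1 there was 166 and 135 CPM in WT and 129.97 and 76.2 CPM in TRα1+m in the former, and 59.3 and 110.0 CPM against 47.5 and 81.4 CPM in the latter, where WT repeat 1 was below TRα1+m repeat 2 and the genotypes overlapped.

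Miat was the neuronal member, and its levels in Neurons_1 overlapped between the genotypes. In Neurons_1 it stood at 111 and 119 CPM in WT and at 113 and 121 CPM in TRα1+m, from 4308 to 5792 UMIs a library. The means were 115.0 ± 5.48 and 117 ± 5.95 CPM (SD, n = 2), and the log2 change was -0.04 (SE 0.11, edgeR adjusted p = 1.00). Between repeats the change was 0.06 (SE 0.07, adjusted p = 0.511). Thinned to 1000 UMIs, 10.1%, 11.001%, 10.5% and 10.9% of Neurons_1 nuclei had a Miat UMI, against 2.24%, 0.939%, 1.85% and 0.785% of oligodendrocytes.

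Within neurons Miat was highest in the sub-cluster labelled Orexin+ (167 ± 20.9 CPM, SD, n = 4), above the next by more than the larger SD. The Glutamatergic Neurons_3 (132 ± 11.4), Glutamatergic Neurons_1 (132 ± 3.74), CART Neurons_1 (123 ± 14.1), Glutamatergic Neurons_2 (120 ± 9.60) and GABA Neurons (111 ± 4.66) followed without a gap above their SD. The lowest neurons were vasopressin (64.3 ± 4.65) and Somatostatin+ (60.3 ± 12.5), level with tanycytes (60.7 ± 20.9). OPC held 39.9 ± 9.02 CPM, above astrocytes without tanycytes at 19.8 ± 3.11 CPM, and oligodendrocytes were at 14.8 ± 5.55 CPM. MCH-labelled nuclei without vascular genes held 89.9 and 86.1 CPM in WT and 91.7 and 99.9 CPM in TRα1+m, and those with them 40.1, 29.7, 26.7 and 49.1 CPM.

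Miat was not called between the genotypes in any of the 5 main clusters or 12 neuronal sub-clusters by edgeR, with or without the block, or by DESeq2. In the main clusters these fits called 0% to 0.103% of all genes by edgeR, 0.01% to 4.35% with the block and 0% to 0.594% by DESeq2. In the neuronal sub-clusters the shares were 0% to 0.043%, 0.031% to 0.896% and 0% to 0.0287%. A missing call was thus the usual outcome for any gene. In OPC it was 34.7 and 34.1 CPM in WT and 37.8 and 53.3 CPM in TRα1+m (log2 change 0.35, SE 0.27, edgeR adjusted p = 1.00), an order without overlap that 16.3% of genes tested there showed. In the microglia and macrophage cluster it was 9.40 and 5.83 CPM in WT and 16.96 and 16.2 CPM in TRα1+m, from 5 to 13 UMIs, which 14.0% of genes matched in direction without overlap. Oligodendrocytes held 20.1 and 11.4 CPM in WT and 18.8 and 8.71 CPM in TRα1+m, overlapping between genotypes but lower in repeat 2 of both. That repeat difference was -0.96 on the log2 scale (SE 0.28, edgeR adjusted p = 0.0131, 12.4% of genes called), and in astrocytes -0.51 (SE 0.18, adjusted p = 0.0325, 20.6% of genes called). DESeq2 called neither, with an SE of 0.55 and no adjusted p in oligodendrocytes (unadjusted p = 0.0767) and an adjusted p of 0.630 in astrocytes. Miat in oligodendrocytes was 0.181, 0.0961, 0.167 and 0.0720 of its Neurons_1 level (WT repeats 1 and 2, then TRα1+m), and 5 neuronal markers summed to 878, 904, 856 and 617 CPM there against 3187, 3432, 3236 and 3332 CPM in Neurons_1. The part of free neuronal RNA in the glial Miat was not tested. CART Neurons_1 and Oxytocin+, AVP neurons were the 2 of 12 neuronal sub-clusters in which both mutant libraries lay above both WT libraries, at 129 and 138 against 106 and 117 CPM in the first, where 14.2% to 18.3% of genes did so in the neuronal sub-clusters.

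Genes with the most similar pattern were ranked by Pearson's r of log2 (mean CPM + 1) over the same 18 clusters and sub-clusters, among 11582 genes, as a description, since the clusters share libraries and were made from these genes. Nearest to Neat1 were Sypl (r = 0.973), Aspa (r = 0.962) and Gna12 (r = 0.949), each highest in oligodendrocytes. Aspa encodes aspartoacylase, an enzyme of oligodendrocytes that splits N-acetylaspartate. Nearest to Malat1 were Pef1 (r = 0.907), 9330117O12Rik (r = 0.872) and Prr5l (r = 0.872). Nearest to Miat were Ece2 (r = 0.960), Strbp (r = 0.954), which encodes an RNA-binding protein, and Gfod2 (r = 0.950). Between members, r was 0.85 for Neat1 with Malat1, -0.83 for Neat1 with Miat and -0.71 for Malat1 with Miat.

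The proteins that work with these RNAs were taken from 4 lists. Of 15 paraspeckle proteins and 18 nuclear speckle and splicing proteins, each tested in all 5 main clusters, 0 were called between genotypes by edgeR or DESeq2, and 0 of 75 and 0 of 90 gene and cluster pairs had an unadjusted p under 0.05 in either tool. Over all genes, edgeR called 0% to 0.103% in these clusters and DESeq2 0% to 0.594%, so few calls were possible for any list. With the block, which called 0.01% to 4.35% of genes, 0 pairs of either list were called. An unadjusted p under 0.05 was then found for 0 of 75 and 5 of 90 pairs, not compared with the share over all genes. The median log2 change of the paraspeckle list lay between -0.02 and 0.08 over the 5 clusters and that of the speckle list between -0.02 and 0.11, where the medians over all genes tested lay between -0.002 and 0.01. In oligodendrocytes, the cluster with the largest Neat1 level, the paraspeckle gene Sfpq (157 and 194 CPM in WT, 150.4 and 201 CPM in TRα1+m) overlapped between the genotypes. The speckle core genes Son (566 and 357 CPM in WT, 548 and 376 CPM in TRα1+m) and Srrm2 (258 and 290.0 CPM in WT, 248 and 293 CPM in TRα1+m) did as well.

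Of 5 RNA-binding partners named for Miat, 0 were called by edgeR or DESeq2, with 1 of 25 pairs under an unadjusted p of 0.05 in each. That pair was Celf2, a splicing regulator, in oligodendrocytes, at 163 and 161 CPM in WT and 260.2 and 225 CPM in TRα1+m (log2 change 0.64, SE 0.17, edgeR adjusted p = 0.442, and 0.00314 with the block). The blocked fit called 4.35% of genes in oligodendrocytes. Qk, whose protein QKI controls splicing in myelinating glia, was at 3497 and 3054 CPM in WT and 3281 and 3372 CPM in TRα1+m, without a separation of the genotypes. Of 23 other long non-coding RNAs, 22 were in the matrices and 0 were called by edgeR or DESeq2, with 4 and 1 of 108 pairs under an unadjusted p of 0.05. With the block, 15 of the 108 pairs were under it, and these counts were not compared with the share over all genes. The 2 most abundant, Meg3 and Snhg11, stood in oligodendrocytes at 611, 587, 668 and 473 CPM and at 507, 562, 583 and 578 CPM in the same order of libraries. Kcnq1ot1, an imprinted RNA, was called in oligodendrocytes with the block alone, where 4.35% of genes were (137 and 168 CPM in WT, 174 and 311 CPM in TRα1+m, adjusted p = 0.00179).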

How the data were processed

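The authors aligned the reads of 4 single-nucleus libraries with Cell Ranger 5.0.1 on the mouse mm10 reference (GRCm38), introns included, and deposited raw UMI counts per gene and barcode, not normalised. They kept barcodes with at least 900 counts, 700 features and at most 5% mitochondrial counts that passed a doublet filter, and clustered and named them in Seurat. Their annotation was used here as deposited.

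Counts were summed per library and cluster for Neat1, Malat1 and Miat and all other genes. Each of 5 main clusters, and each sub-cluster with 10 or more nuclei per library, was fitted in edgeR 4.0.16 (quasi-likelihood F-test, two-sided, TMM, filterByExpr, robust), with Benjamini-Hochberg adjustment over all genes tested and a threshold of 0.05. DESeq2 1.42.0 was an alternative. Differences between clusters were tested as an interaction with library as a block. An exact permutation test of 2 against 2 libraries cannot go below p = 0.333. The fits without a replicate block were run on simulated counts of fixed dispersion. The simulated genotype counts held no repeat effect, so the blocked fit was not checked by them. R was 4.3.3 and Python 3.11.15.

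Each experimental repeat made 1 library of each genotype, so the repeat number pairs the libraries. Over genes, the repeat differences of the 2 genotypes correlated at r = 0.541 in oligodendrocytes, 0.668 in astrocytes, 0.495 in OPC, 0.393 in microglia and macrophages and 0.667 in Neurons_1. The genotype fit had no block, and a fit with the replicate block is given beside it.

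Shares of nuclei with a UMI came from nuclei thinned to 1000 UMIs. Sequences were read from GENCODE M21 transcripts. The 3 genes, the 4 gene lists and the cell type markers were chosen with earlier results of these data known. Beside the members, the text names the 3 genes most like each member over clusters and, from each list, the called genes and the 2 with the highest level over all nuclei, except 1 gene that is not reported here.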

Additional observations from a re-analysis of the deposited data

Results flagged for a closer look

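In the clusters and sub-clusters left out of the fits and in the barcodes that the authors did not keep, taken whole, 3 levels with at least 3 UMIs in each mutant library were higher in both TRα1+m libraries than in both WT libraries. Miat in the small non-neuronal cluster averaged 23.5 CPM in TRα1+m, at 20.7 and 26.4 CPM from 5 and 3 UMIs, against 5.45 and 0 CPM from 1 and 0 UMIs in WT. Of genes with at least 10 UMIs in that cluster, 14.7% showed this order, and Miat itself has fewer. Malat1 in the cluster Neurons_2 averaged 31348 CPM in TRα1+m (30934 and 31763 CPM) against 26475 and 19713 CPM in WT, but TRα1+m repeat 2 gave 89366 of the Malat1 UMIs there and the other 3 libraries 367, 22 and 407, and 18.6% of genes with at least 10 UMIs showed this order. In the barcodes not kept, where 14.3% of such genes did, Miat averaged 74.6 CPM in TRα1+m (71.7 and 77.6 CPM) against 66.9 and 68.7 CPM in WT.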

How the results depend on the processing

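With 2 libraries per genotype, the unblocked fit leaves 2 residual degrees of freedom per gene. The fit with the replicate block leaves 1. Neat1 in OPC of TRα1+m rests on 4 and 6 UMIs. In each of the 5 main clusters the genotype change of Neat1 stayed negative under each alternative. In oligodendrocytes it was -1.62 in DESeq2 and without a low-count filter, -1.66 with the replicate block and -2.06 to -1.28 with 1 library left out. In OPC it was -2.89 without the filter, -2.90 with the block and -3.09 to -2.65 with 1 library left out, and in astrocytes -0.83 with the block; the cause of the changed calls was not tested. The block gave Malat1 1.03 in oligodendrocytes and 0.23 in OPC, both called, and 0.10 in Neurons_1, not called. In OPC, Malat1 of the mutant was below WT in repeat 1 and above it in repeat 2. The block changed no other call of a member in the main clusters. Leaving out 1 library moved Malat1 from -0.44 to 0.79 in astrocytes, -0.33 to 0.80 in OPC, -0.30 to 0.57 in the microglia and macrophage cluster and -0.52 to 0.76 in Neurons_1, and Miat from -0.77 to 0.37 in oligodendrocytes and -0.62 to 0.21 in astrocytes. In microglia and macrophage nuclei without an oligodendrocyte marker UMI, an alternative chosen after seeing the data, Malat1 was -0.18.

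Genes called between genotypes in oligodendrocytes numbered 13, and 75 in DESeq2, 120 without the filter, 550 with the replicate block, 34 in nuclei of at least 1500 UMIs and 0 to 196 with 1 library left out. In place of 0, DESeq2 called 1 gene in astrocytes, 1 in OPC and 1 in Neurons_1, no filter called 1 in astrocytes, 11 in OPC and 9 in the microglia and macrophage cluster, and the block called 190, 64, 35 and 2 in astrocytes, OPC, the microglia and macrophage cluster and Neurons_1. Leaving out 1 library gave 1 to 8 calls in OPC and 0 to 72 in the microglia and macrophage cluster. Neuronal sub-clusters called went from 0 to 2 for Neat1 with the block. Without TRα1+m repeat 1, Malat1 in the sub-cluster labelled Orexin+ was at -0.67, with the lone mutant library between the WT libraries.

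Between repeats, Malat1 lost its call in OPC with RLE factors (-0.69), DESeq2 (-0.69), no filter (-0.68) and nuclei of at least 1500 UMIs (-0.72), and in astrocytes with DESeq2 (-0.73) and those nuclei (-0.80), and gained one in the microglia and macrophage cluster with those nuclei (-0.63). Miat lost its call in astrocytes with DESeq2 (-0.52) and in both clusters with those nuclei (-0.50 in astrocytes, -0.72 in oligodendrocytes), where Neat1 in the microglia and macrophage cluster was -0.25. Without a filter, the interaction of Neat1 with astrocytes (-0.84) and the microglia and macrophage cluster (-1.18), and that of Malat1 with astrocytes (0.86), OPC (0.77) and Neurons_1 (0.91), were called. With 1 library left out, added after seeing the data, Neat1 ranged from -1.54 to -0.77 against the microglia and macrophage cluster and -1.07 to 0.50 against Neurons_1, Malat1 from 0.72 to 0.88 against OPC and 0.75 to 1.11 against Neurons_1, and Miat from -0.25 to 0.40 against astrocytes, -1.27 to 0.21 against OPC and -0.70 to 0.36 against Neurons_1. Whole nuclei in place of thinned ones gave mean shares with a UMI of 9.89%, 3.07%, 10.6% and 3.01% for Neat1 in astrocytes, OPC, the microglia and macrophage cluster and Neurons_1, and 2.48%, 5.02%, 10.0%, 1.91% and 39.1% for Miat in oligodendrocytes, astrocytes, OPC, the microglia and macrophage cluster and Neurons_1. Among the other 325 alternatives of these results, Miat between repeats in oligodendrocytes had no adjusted p in DESeq2 (-0.97) and so lost its call. The rest kept direction and, where an adjusted p was given, their side of the threshold.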

Other observations

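The barcodes that the authors did not keep carried the genotype order of Neat1 too, at 73.8 and 86.1 CPM in WT and 23.2 and 33.9 CPM in TRα1+m, where the kept nuclei held 47.1 and 49.96 CPM and 16.4 and 21.6 CPM. Of genes with at least 10 UMIs in the barcodes not kept, 12.6% had that order. It was present in those with over 5% mitochondrial UMIs, at 82.8 and 120 CPM in WT against 31.6 and 41.8 CPM in TRα1+m. It was present as well in those that passed the limits on counts, features and mitochondrial share, at 63.0 and 70.3 CPM against 17.95 and 32.8 CPM. Among genes with at least 10 UMIs, 3208 of 16898 had that order in the former class and 1818 of 18580 in the latter. Malat1 in the dropped barcodes followed the kept nuclei, with 36733, 16882, 34405 and 27871 CPM in WT repeats 1 and 2 and TRα1+m repeats 1 and 2.

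The unnamed neuronal sub-cluster 11 held Neat1 at 155 and 171 CPM in WT from 82 and 70 UMIs, and 52.2 and 32.1 CPM in TRα1+m from 41 and 1 UMIs, an order that 16.7% of genes with at least 10 UMIs showed there. In the sub-cluster CART Neurons_2 Neat1 was at 101 and 186 CPM in WT from 2 and 24 UMIs, and at 0 and 87.0 CPM in TRα1+m from 0 and 2 UMIs, too few to order the libraries. Neurons_2 had 10 Neat1 UMIs in TRα1+m repeat 2 and 0 in the other 3 libraries.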
